A study of Homo sapiens with 6 samples.

Results

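The genes described here are 10 feedback inhibitors of the ERK cascade: the phosphatases DUSP1, DUSP4, DUSP5, DUSP6 and DUSP7, the Sprouty genes SPRY1, SPRY2 and SPRY4, and the Sprouty-related genes SPRED1 and SPRED2. They were taken by gene symbol, and each matched 1 row among the 60669 genes of the deposited table. All 10 were among the 15637 genes whose mean over the 6 libraries was at least 10, the minimum for testing. The cells were LX-2, an established line derived from human hepatic stellate cells, the liver cells that deposit scar matrix once activated. One group of 3 libraries came from cells given an siRNA against the secreted metalloprotease ADAMTS12 (siADAMTS12) and 1 group of 3 from cells given a commercial negative-control siRNA (siCTL). Both groups were wild type, grown in medium with fetal calf serum, transfected with a lipid reagent and collected at 48 h. A single siRNA sequence and a single cell line stand behind each comparison.

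In the ERK cascade, growth factor receptors activate RAS, which passes the signal through RAF and MEK to the kinases ERK1 and ERK2. Active ERK switches on genes whose products then damp the cascade. Dual-specificity phosphatases (DUSP) remove the activating phosphates from MAP kinases, Sprouty proteins interrupt signalling between receptor and RAF, and SPRED proteins bring the RAS inhibitor neurofibromin to the membrane. In stellate cells, platelet-derived growth factor is a known driver of this cascade.

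The values are the authors' normalized counts, written as whole numbers, and the sequencing depth behind them was not rebuilt. The columns summed to 30678468 to 31415206 normalized counts in siADAMTS12 libraries and to 33576945 to 34072515 in siCTL libraries. ADAMTS12, the targeted gene, stood at 4083, 3449 and 3687 normalized counts in siADAMTS12 libraries, against 13709, 12235 and 13423 in siCTL libraries (log2 fold change -1.81 ± 0.07 SE, limma adjusted p = 4.81e-08). Of 10 stellate markers, 9 passed the minimum for testing, and the list had a summed level of 300798 to 319781 in siADAMTS12 libraries and 392685 to 430209 in siCTL libraries, and DES was at 0 in all but 1 library. Hepatocyte markers summed to 22 to 28 in siADAMTS12 libraries and 17 to 19 in siCTL libraries. The endothelial list reached 15 to 24 and 28 to 39 and the macrophage list 104 to 126 and 101 to 122, in the same order of groups. For the epithelial list the sums were 233 to 262 in siADAMTS12 libraries, mostly KRT7, and 283 to 298 in siCTL libraries. Fold changes are siADAMTS12 over siCTL on the log2(value + 1) scale with the moderated standard error (SE) from limma, and a gene is called at a Benjamini-Hochberg adjusted p below 0.05 over all genes tested.

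With siADAMTS12, SPRED1 was lower by 1.27-fold and was the only one of the 10 genes called from the group alone. With the replicate number as a block in the fit, 5 of the 10 were called: SPRED1, DUSP5 and DUSP1 fell, and SPRY2 and DUSP7 rose. All genes tested gave 35.1% called with the block. The group was not shifted as a whole: the median log2 fold change of the 10 genes was 0.02, against 0.005 over all genes tested. Without the block, 0 of the 10 rose and 1 fell. Of all genes tested, 27.0% were called in that fit, and 15.5% of all genes tested were called as falls. For all genes the calls were 1798 rises and 2424 falls, of which 42.6% were rises; with the columns rescaled to an equal sum the share of rises was 71.4%. SPRED1 was also the single member whose 2 groups did not overlap, which was the case for 40.9% of the genes tested. Since these are bulk samples, fewer cells carrying an RNA and less of it per cell cannot be told apart.

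The siRNA and its seed are given first, since several members hold short matches to one or the other of its strands. The sense strand comes from the labels. The guide is its reverse complement, with positions 2 to 8, the seed that pairs with off-target 3' UTRs, in capitals.
siADAMTS12 sense strand: GCCAAAGUUUGGAGGGAAA
siADAMTS12 guide strand: uUUCCCUCcaaacuuuggc

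A 3' UTR match to guide positions 2 to 8 reads GAGGGAA. It was absent from the 3' UTR of SPRED1, which is 5585 bases long in the GENCODE 29 principal transcript. SPRED1 held 2 matches to guide positions 2 to 7, AGGGAA, and both were followed by an A, a form known from microRNA targeting to strengthen pairing sites. The sites lie at chr15:38354620-38354625 and chr15:38355301-38355306 on the plus strand of GRCh38. They are printed 5′ to 3′ with 10 bases on either side and the matched bases in capitals.
SPRED1 site 1: cacctctaccAGGGAAaccaggaata
SPRED1 site 2: taaaatctaaAGGGAAaaacttgaaa

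Among 12667 tested genes with a 3' UTR to search, 2.04% held at least 2 such A-flanked 6-mers without the 7-mer, and their median log2 fold change was -0.14. The median was 0.02 in the 58.8% of genes with no 6-mer, a class that took in DUSP1, DUSP5, DUSP6, DUSP7, SPRY2, SPRY4 and SPRED2. In the principal transcripts, SPRY1 held 1 A-flanked 6-mer, and DUSP4 was the single member with the 7-mer, which 15.6% of the searched genes held. With the 1 inside its 7-mer, DUSP4 had 4 6-mers, and 0 of them were followed by an A. Its log2 fold change was -0.14 (limma adjusted p = 0.423). The sense strand can also enter the silencing complex. Its seed match, ACTTTGG, stood at 2 places in the 3' UTR of DUSP5 (6.57% of searched genes had at least 2), at chr10:110510847-110510853 and chr10:110511073-110511079 on the plus strand of GRCh38.
DUSP5 site 1: tattttttgaACTTTGGcagtttcaat
DUSP5 site 2: ctgaccttggACTTTGGcatgattctt

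DUSP4, DUSP6, SPRY4 and SPRED2 had 1 sense-strand match each, so that 5 of the 10 genes held one, against 21.5% of the searched genes. In the order given, the log2 fold changes of these genes with 1 match were -0.14, 0.11, -0.04 and 0.07. The median log2 fold change was -0.03 over all genes with that match and -0.05 over those with at least 2, of which 26.7% fell. For the class of DUSP4, the guide 7-mer, the median was -0.14 and 35.9% fell, against 12.0% of the genes with no guide 6-mer. The classes by a following A and by the sense strand were beyond the plan, so their medians are descriptive only. The cut of at least 2 equals the number of sites that SPRED1 and DUSP5 hold, so their place in these classes carries no weight. Match counts were not adjusted for the length of the 3' UTR, which ran from 672 bases in DUSP1 to 5585 in SPRED1. The part of any of these matches in the members' values was not tested.

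SPRED1 (ENSG00000166068, chromosome 15, 38252326 to 38357249, plus strand) encodes a membrane-bound inhibitor of RAS that works through neurofibromin. Its normalized counts were 2348, 2343 and 2320 in siADAMTS12 libraries, against 3154, 2806 and 2925 in siCTL libraries. Every siADAMTS12 library lay below every siCTL library, and the siADAMTS12 libraries were nearly level with each other. The log2 fold change was -0.34 ± 0.06 SE (95% interval -0.48 to -0.20, limma adjusted p = 0.00192). The exact 2-sided permutation p was 0.1, the smallest that 3 libraries against 3 can give.

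SPRED2 (ENSG00000198369, chromosome 2, 65310851 to 65432637, minus strand) is the paralogue with the same mode of action. It had 1963, 1953 and 2097 normalized counts in siADAMTS12 libraries, against 1760, 1898 and 2062 in siCTL libraries. The groups overlapped, and the log2 fold change of 0.07 (95% interval -0.08 to 0.23, limma adjusted p = 0.485) lay wholly above the interval of SPRED1. Without siCTL replicate 1 the log2 fold change of SPRED2 was 0.018. Within each library, the ratio of SPRED1 to SPRED2 counts was 1.20, 1.20 and 1.11 in siADAMTS12 replicates 1, 2 and 3, against 1.79, 1.48 and 1.42 in siCTL replicates 1, 2 and 3. The groups did not overlap in this ratio, which was the case for 8 of the 14 ratios taken within families. These ratios reuse the same genes, and the share over other gene pairs was not computed.

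DUSP1, DUSP4 and DUSP5 encode phosphatases of the nucleus, induced early by growth factors and stress. DUSP1 (ENSG00000120129, chromosome 5, 172768090 to 172771195, minus strand) acts on p38 and JNK as well as ERK. It stood at 2469, 2470 and 2956 normalized counts in siADAMTS12 libraries, against 2760, 2943 and 3156 in siCTL libraries. Its groups overlapped, with a log2 fold change of -0.17 (95% interval -0.35 to 0.01, limma adjusted p = 0.153, and 0.0321 with the replicate block), and it was called only without siADAMTS12 replicate 3 (-0.26, adjusted p = 0.0410) among the fits that left out 1 library.

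DUSP4 (ENSG00000120875, chromosome 8, 29333064 to 29350668, minus strand) had 1052, 798 and 1127 normalized counts in siADAMTS12 libraries, against 1137, 1001 and 1103 in siCTL libraries. One low library, siADAMTS12 replicate 2, set its difference: the log2 fold change was -0.14 (95% interval -0.39 to 0.12, limma adjusted p = 0.423) and turned to 0.013 without that library.

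DUSP5 (ENSG00000138166, chromosome 10, 110497838 to 110511544, plus strand) is specific for ERK. It had 2732, 1945 and 2622 normalized counts in siADAMTS12 libraries, against 3196, 2710 and 3188 in siCTL libraries. The groups touched, since the highest siADAMTS12 library lay above the lowest siCTL library. The log2 fold change was -0.33 ± 0.12 SE (95% interval -0.59 to -0.07, limma adjusted p = 0.0586). With the replicate block it fell, at an adjusted p of 0.00260. Without the block it was called when siADAMTS12 replicate 1 (-0.42, adjusted p = 0.0239) or siCTL replicate 2 (-0.41, adjusted p = 0.0480) was left out, and without siADAMTS12 replicate 2 its log2 fold change was -0.18 (adjusted p = 0.147).

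DUSP6 and DUSP7 encode ERK-specific phosphatases of the cytoplasm. DUSP6 (ENSG00000139318, chromosome 12, 89347232 to 89353271, minus strand), the member most often used as a readout of ERK activity, had 1064, 943 and 1126 normalized counts in siADAMTS12 libraries, against 995, 804 and 1125 in siCTL libraries. Its log2 fold change was 0.11 (95% interval -0.14 to 0.36, limma adjusted p = 0.527), and it turned to -0.023 without siCTL replicate 2. The antisense gene AC024909.2 overlaps its exons but had at most 5 normalized counts in any library.

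DUSP7 (ENSG00000164086, chromosome 3, 52048919 to 52056550, minus strand) had 2398, 2326 and 2577 normalized counts in siADAMTS12 libraries, against 2117, 2004 and 2374 in siCTL libraries. Of the siCTL libraries, replicate 3 alone reached into the siADAMTS12 range. The log2 fold change was 0.17 (95% interval 0.01 to 0.34, limma adjusted p = 0.115, and 0.0270 with the replicate block). It was called without siCTL replicate 3 (0.24, adjusted p = 0.0453), after quantile normalization (0.23, adjusted p = 0.0412) and with columns rescaled to an equal sum (0.30, adjusted p = 0.0117, where the median of all genes stood at 0.13). Its adjusted p ran from 0.00119 to 0.326 over all alternatives.

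**Figure D1:**
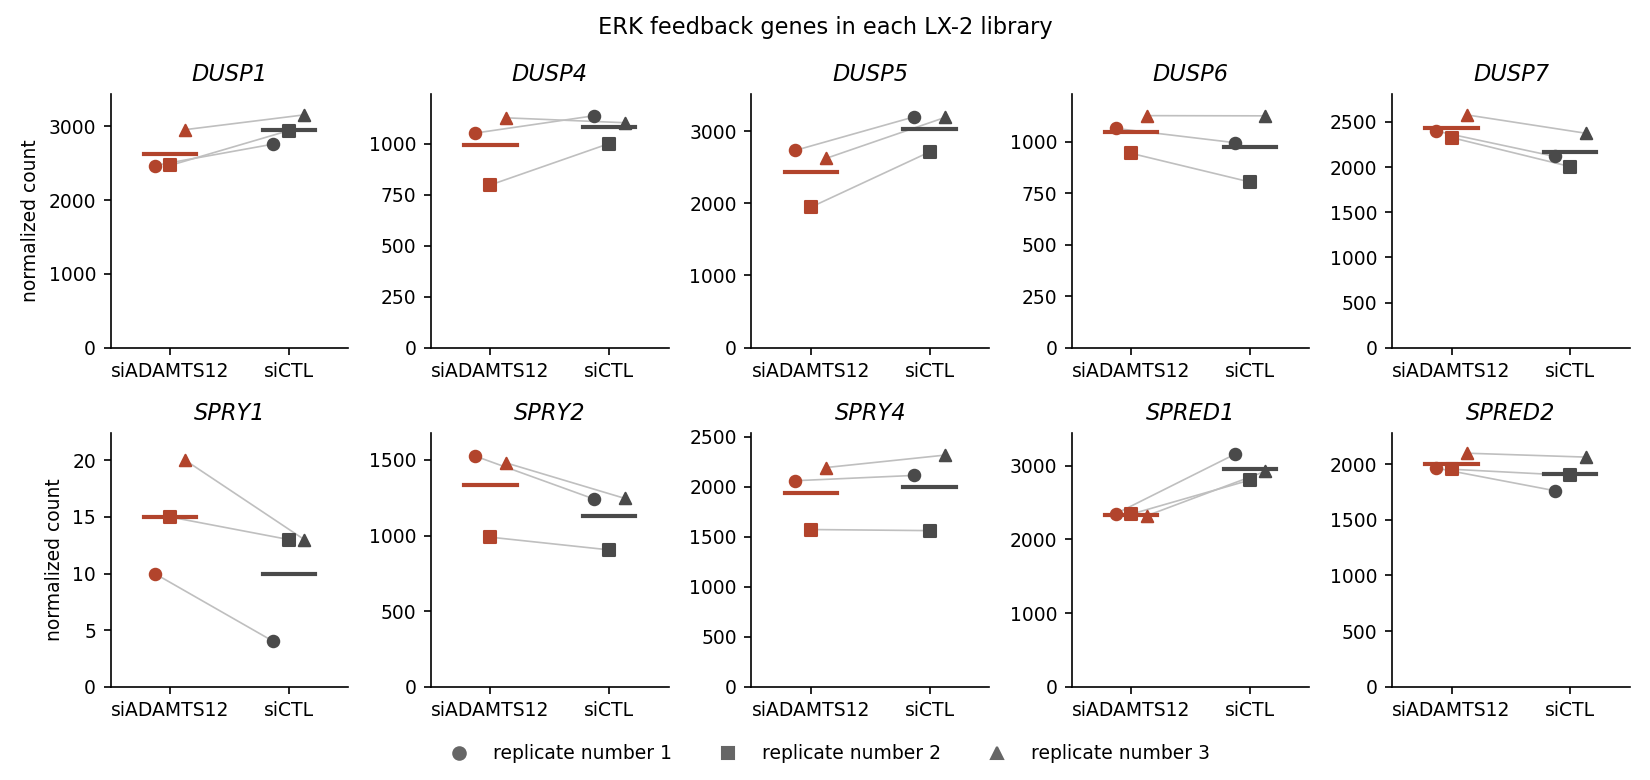
Normalized count of each of the 10 genes in each library (vertical axes start at 0; siADAMTS12 left, siCTL right; horizontal bars are group means, n = 3; symbols give the replicate number and thin lines join libraries of the same number). SPRED1 is the single gene whose groups do not overlap, and in SPRY2, SPRY4, DUSP4, DUSP5, DUSP6 and DUSP7 the square, replicate 2, is lowest on both sides.

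Of the Sprouty genes, SPRY2 and SPRY4 were well expressed and SPRY1 was barely detected. SPRY2 (ENSG00000136158, chromosome 13, 80335976 to 80340951, minus strand) had 1526, 989 and 1481 normalized counts in siADAMTS12 libraries, against 1242, 905 and 1246 in siCTL libraries. In each group replicate 2 lay far below the other libraries, so the groups overlapped and the log2 fold change of 0.22 carried a wide interval (-0.13 to 0.58, limma adjusted p = 0.343, and 0.0172 with the replicate block). Without siADAMTS12 replicate 2 it was 0.43 (adjusted p = 0.0306), and without siCTL replicate 2 it was 0.072 (adjusted p = 0.795).

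SPRY4 (ENSG00000187678, chromosome 5, 142310427 to 142326455, minus strand) had 2059, 1571 and 2191 normalized counts in siADAMTS12 libraries, against 2112, 1560 and 2315 in siCTL libraries. Each siADAMTS12 library lay close to the siCTL library of the same number. The log2 fold change was -0.04 (95% interval -0.36 to 0.29, limma adjusted p = 0.893), and its sign turned with the scaling (0.004 after quantile normalization, 0.089 with columns rescaled to an equal sum). SPRY1 (ENSG00000164056, chromosome 4, 123396795 to 123403760, plus strand) had 10, 15 and 20 normalized counts in siADAMTS12 libraries, against 4, 13 and 13 in siCTL libraries. At so low a level its log2 fold change of 0.64 had an interval from -0.38 to 1.65, so a difference in either direction was not detectable here (limma adjusted p = 0.341). Without siCTL replicate 1 the log2 fold change of SPRY1 was 0.14.

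Libraries of the same replicate number deviated together over all genes, clearly for number 1 (correlation 0.37) and weakly for numbers 2 and 3 (0.13 each). Between other numbers the values reached 0.06. The labels do not say that same-numbered libraries share a culture or day, so the pairing is an assumption. With the number as a block in the limma fit, 5 of the 10 genes were called, against 35.1% of all genes tested: SPRED1 (adjusted p = 0.00108), DUSP5 (0.00260) and DUSP1 (0.0321) fell, and SPRY2 (0.0172) and DUSP7 (0.0270) rose. The fold changes are the same as without the block, and their SE is smaller. Over all alternatives the adjusted p ran from 0.00108 to 0.0210 for SPRED1, from 0.00260 to 0.225 for DUSP5, from 0.0321 to 0.709 for DUSP1 and from 0.00194 to 0.795 for SPRY2. The block did not bring DUSP4, DUSP6, SPRY1, SPRY4 or SPRED2 below the threshold (adjusted p = 0.193 to 0.636). With both libraries numbered 2 left out and no block, SPRED1 and DUSP5 fell and SPRY2 rose. Over all 15637 genes tested, 2049 fell and 1367 rose in that fit.

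**Figure D2:**
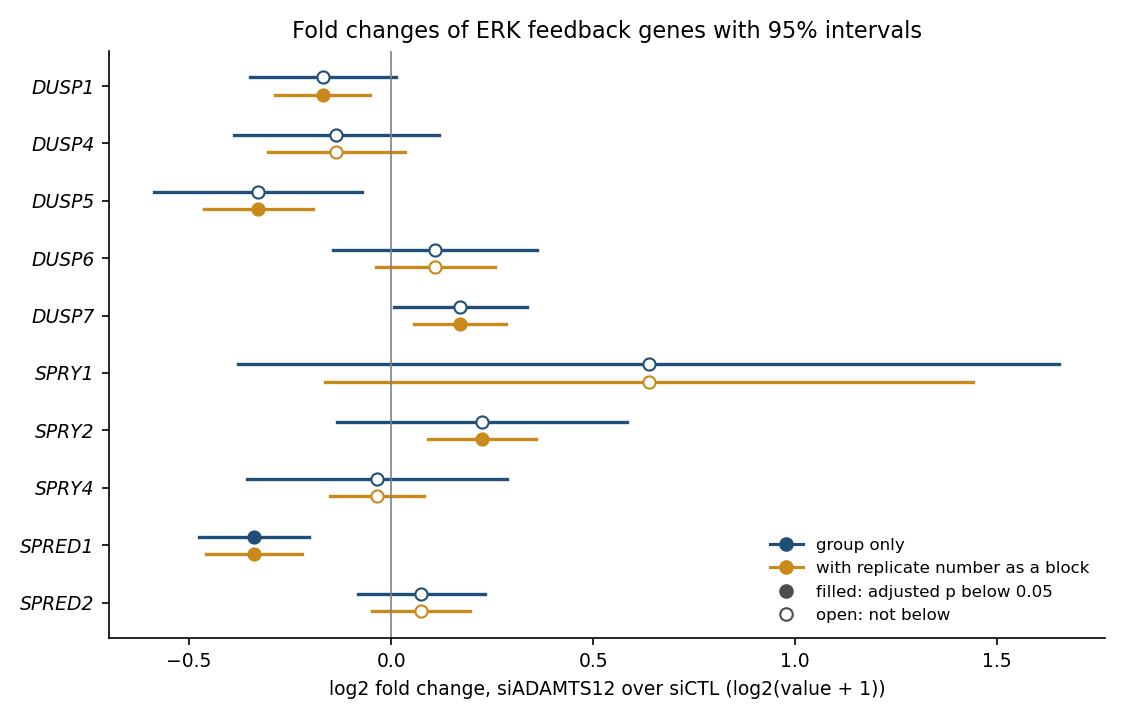
Log2 fold change (siADAMTS12 over siCTL, log2(value + 1) scale) of the 10 genes with 95% intervals from limma, without the replicate block (upper line of each pair) and with it (lower line); filled points are adjusted p below 0.05. SPRED1 is filled in both fits, and DUSP1, DUSP5, DUSP7 and SPRY2 only with the block.

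Taking same-numbered libraries as pairs, 8 of the 10 genes kept 1 sign in all 3 pairs, against 59.4% of the genes tested. SPRED1 was lower in siADAMTS12 by log2 differences of -0.43, -0.26 and -0.33 in pairs 1, 2 and 3, and DUSP5 by -0.23, -0.48 and -0.28. DUSP1 was lower in all 3 pairs (-0.16, -0.25 and -0.09). SPRY2 was higher by 0.30, 0.13 and 0.25 and DUSP7 by 0.18, 0.21 and 0.12. DUSP6, SPRED2 and SPRY1 were also higher in all 3 pairs, though DUSP6 by only 0.001 in pair 3, and DUSP4 and SPRY4 changed sign between pairs.

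The shared variation set replicate 2 low and replicate 3 high in many members. Replicate 2 was the lowest library in both groups for 6 of the 10 genes, DUSP4, DUSP5, DUSP6, DUSP7, SPRY2 and SPRY4, against 13.7% of the genes tested. Replicate 3 was the highest in both groups for 5, DUSP1, DUSP6, DUSP7, SPRY4 and SPRED2, against 9.71%, and replicate 1 was the lowest for 2, DUSP1 and SPRY1, against 16.8%. Replicate 2 lay below the mean of replicates 1 and 3 by log2 values, averaged over the groups, of -0.53 for SPRY2, -0.47 for SPRY4, -0.35 for DUSP5, -0.31 for DUSP6, -0.30 for DUSP4 and -0.13 for DUSP7. For SPRED1 and SPRED2 the same value was -0.05 and -0.03, and over all genes its median was -0.0002. For SPRY2, SPRY4, DUSP4, DUSP5 and DUSP6 this distance exceeded the difference between the groups in size. Of 26 other genes known to follow ERK activity, 13 were also lowest in replicate 2 of both groups, among them TFPI2, FOS and MAFF, and the list's median distance was -0.18. Another 3 were highest in replicate 2 of both groups: EGR2 (1.02), EGR1 (0.56) and EPHA4 (0.27), named after their values were seen. What sets the libraries numbered 2 apart is not given in the labels, and its part in these values was not tested.

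**Figure D3:**
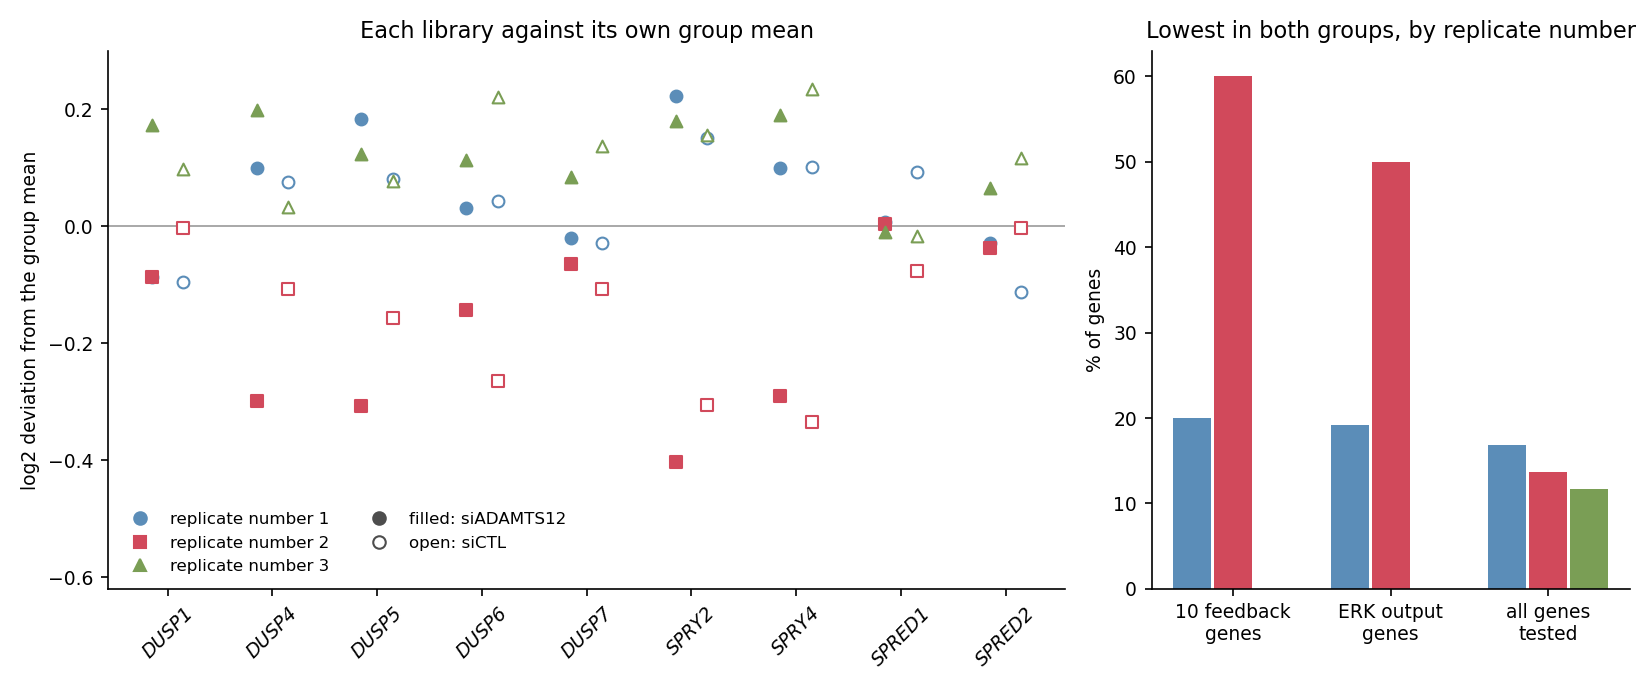
Left, log2 deviation of each library from its own group mean for 9 of the 10 genes (SPRY1, at 4 to 20 counts, is left out; filled siADAMTS12, open siCTL; colour and symbol give the replicate number). Right, percent of genes whose lowest library has the given replicate number in both groups: replicate 2 for 6 of the 10 genes, 13 of 26 ERK output genes and 13.7% of 15637 genes tested, and replicate 3 for none of the first 2 lists.

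Ratios between members of 1 family were also taken within each library. Of 14 such ratios, 8 had groups that did not overlap. The 14 reuse the same genes, so the 8 are not separate results. The share over other gene pairs was not computed, and among single genes tested 40.9% had groups that did not overlap. They remove only what both genes share, and the members carried the low values of replicate 2 unequally. The ratio of SPRY2 to SPRY4 counts was 0.741, 0.630 and 0.676 in siADAMTS12 replicates 1, 2 and 3, against 0.588, 0.580 and 0.538 in siCTL replicates 1, 2 and 3. The ratio of the nuclear DUSP5 to the cytoplasmic DUSP7 was 1.14, 0.836 and 1.02 in siADAMTS12 libraries and 1.51, 1.35 and 1.34 in siCTL libraries. DUSP5 to DUSP6 ran from 2.06 to 2.57 in siADAMTS12 libraries, against 2.83 to 3.37 in siCTL libraries. By contrast, DUSP6 to DUSP7 ran from 0.405 to 0.444 in siADAMTS12 libraries and from 0.401 to 0.474 in siCTL libraries, so these 2 cytoplasmic phosphatases kept overlapping proportions. These ratios depend on transcript length and are compared only between groups.

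Levels between genes were compared per kb of the principal transcript. DUSP1 ranked first, with 1303 ± 139 normalized counts per kb in siADAMTS12 libraries and 1463 ± 98.2 in siCTL libraries (SD, n = 3), and DUSP5 was next with 952 ± 167 and 1186 ± 109 in the same groups. SPRY4 (816 ± 137 in siADAMTS12, 839 ± 164 in siCTL) and DUSP7 (729 ± 38.7 and 648 ± 56.8) overlapped in both groups. SPRY2 and SPRED2 also overlapped, at 492 ± 110 and 489 ± 19.6 per kb in siADAMTS12 libraries and 418 ± 72.3 and 465 ± 36.9 in siCTL libraries. SPRED1 followed with 300.4 ± 1.92 per kb in siADAMTS12 libraries, below the ranges of SPRY2 and SPRED2, and 381 ± 22.7 in siCTL libraries, within the range of SPRY2.

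DUSP6 (237 ± 21.2 per kb in siADAMTS12, 222 ± 36.7 in siCTL) and DUSP4 (179 ± 31.1 and 195 ± 12.8) were the lowest of the well-expressed members; their ranges overlapped in siCTL libraries and not in siADAMTS12 libraries. SPRY1 was last, at 5.75 ± 1.92 per kb in siADAMTS12 libraries and 3.83 ± 1.99 in siCTL libraries. The place of SPRY4 depends on the length used: over all annotated exons it had 304 per kb in siCTL libraries and ranked 7 rather than 3.

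Elsewhere in the pathway, some genes named for the smallest adjusted p of their list changed by more than SPRED1. The lists together hold many more genes than the members do. They were drawn up with earlier results of these data known, so their shares and medians beside those of all genes are descriptive only. NRAS, 1 of the 3 classical RAS genes, fell 1.92-fold, and the receptors PDGFRB and FLT1 and the receptor inhibitor LRIG1 fell by 1.74- to 2.26-fold, while MAP2K2, which encodes MEK2, rose 1.54-fold. Of 6 tested relatives of the members, 1 rose and 1 fell (33.3% called, against 27.0% of all genes tested), with a median log2 fold change of 0.32. DUSP10, which acts mainly on p38 and JNK, had 1239, 1206 and 1176 normalized counts in siADAMTS12 libraries, against 1905, 1765 and 1968 in siCTL libraries (log2 fold change -0.64 ± 0.07 SE, limma adjusted p = 3.42e-05). SPRY3 had 136, 171 and 160 in siADAMTS12 libraries, against 124, 91 and 101 in siCTL libraries (0.56 ± 0.16, adjusted p = 0.0192), and lost its call without any 1 of 4 libraries (siADAMTS12 replicates 2 or 3 and siCTL replicates 2 or 3; adjusted p = 0.0595 to 0.0703), where the count of called relatives was 1. With the block 4 relatives rose and 1 fell (83.3% called, against 35.1% of all genes).

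Of 15 tested growth factor receptors, 8 fell and 0 rose (53.3% called, against 27.0% of all genes), with a median log2 fold change of -0.47. With the block 8 fell and 2 rose, IGF1R (adjusted p = 0.00237) and INSR (adjusted p = 0.0390), both named after their values were seen (66.7% called, against 35.1%). PDGFRB, the receptor for platelet-derived growth factor, had 831, 904 and 754 normalized counts in siADAMTS12 libraries, against 1433, 1647 and 1275 in siCTL libraries (-0.80 ± 0.10 SE, limma adjusted p = 0.000133). The low-abundance VEGF receptor FLT1 averaged 57.3 ± 6.03 in siADAMTS12 libraries and 131 ± 15 in siCTL libraries (SD, n = 3), and the abundant receptor AXL 35520 ± 1168 and 51299 ± 987. All 3, which were named for the smallest adjusted p in the list, had groups that did not overlap. So did 9 of the 15 receptors (60.0%), against 40.9% of all genes tested.

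Of 25 genes of the cascade itself, 4 rose and 7 fell (44.0% called, against 27.0% of all genes), with a median of -0.004. With the block 5 rose and 9 fell (56.0%, against 35.1%). NRAS had 3759, 3750 and 3734 normalized counts in siADAMTS12 libraries, against 7511, 7058 and 6985 in siCTL libraries (-0.94 ± 0.06 SE, limma adjusted p = 5.45e-07). MAP2K2 had 4675, 3982 and 4737 in siADAMTS12 libraries, against 2854, 2974 and 2829 in siCTL libraries (0.63 ± 0.07, adjusted p = 8.32e-05), and the RAS activator SOS2 was at -0.58. Besides MAP2K2, the rises included MRAS and FRS2, named after their values were seen; MRAS lost its call without siADAMTS12 replicates 1 or 2 or siCTL replicate 3, and FRS2 without siADAMTS12 replicates 1 or 3 or siCTL replicate 2.

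Of 15 other inhibitors of receptors and RAS, 5 fell and 0 rose (33.3% called, against 27.0% of all genes), with a median of -0.14. With the block 6 fell and 1 rose, DAB2IP (adjusted p = 0.0434), named after its values were seen (46.7% called, against 35.1%). LRIG1, which promotes breakdown of growth factor receptors, had 1210, 1137 and 1196 normalized counts in siADAMTS12 libraries, against 2315, 2566 and 2469 in siCTL libraries (-1.05 ± 0.07 SE, limma adjusted p = 6.96e-07). The RAS GTPase-activating genes RASA3 and RASAL2 were at -0.78 and -0.33. RASA1 and ERRFI1, named after their values were seen, made up the 5, and ERRFI1 lost its call without any library other than siADAMTS12 replicate 3.

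Of 26 tested ERK output genes, 1 rose and 7 fell (30.8% called, against 27.0% of all genes), with a median log2 fold change of -0.27. Without siCTL replicate 3, 4 were called, and with the block 2 rose and 14 fell (61.5% called, against 35.1%). TFPI2, a serine protease inhibitor, had 1376, 982 and 1279 normalized counts in siADAMTS12 libraries, against 2294, 1785 and 2627 in siCTL libraries (-0.88 ± 0.14 SE, limma adjusted p = 0.000929). The transcription factor genes MAFF and FOS were at -0.66 and -1.04, FOS from a low level (34.3 ± 4.04 in siADAMTS12 libraries, 71.3 ± 6.35 in siCTL libraries). The single rise was IER2 (0.37, adjusted p = 0.0334), named after its values were seen, which lost its call without replicates 1 or 3 of either group (adjusted p = 0.0702 to 0.134).

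Of 14 tested genes of the p38, JNK and atypical MAP kinase branches, 2 rose and 1 fell (21.4% called, against 27.0% of all genes). The median log2 fold change was 0.10, and with the block 3 rose and 3 fell (42.9%, against 35.1%). MAPK8, which encodes JNK1, had 1753, 1604 and 1825 normalized counts in siADAMTS12 libraries, against 3208, 2819 and 3011 in siCTL libraries (-0.80 ± 0.07 SE, limma adjusted p = 1.12e-05). MAPK6, encoding the atypical kinase ERK3, was at 0.53. MAPK7, encoding ERK5, was at 0.22, with an adjusted p that sat on the threshold and lay above it (0.0530 to 0.165) without any 1 of the 6 libraries. Among the genes named by smallest adjusted p, SOS2, RASA3 and MAPK8, which fell, and SPRY3, which rose, held the guide 7-mer in the 3' UTR. PDGFRB, FLT1, NRAS, FOS and MAFF, which fell, held the 6-mer without it. Neither match was in LRIG1, TFPI2, DUSP10, AXL and RASAL2, which fell, or in MAP2K2, MAPK6 and MAPK7, which rose. Of all searched genes, 15.6% held the 7-mer and 25.6% the 6-mer without it. The 3' UTRs searched in these named genes ran from 183 bases in RASAL2 to 7721 in SPRY3, and the matches were not adjusted for length. The part of these matches was not tested.

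**Figure D4:**
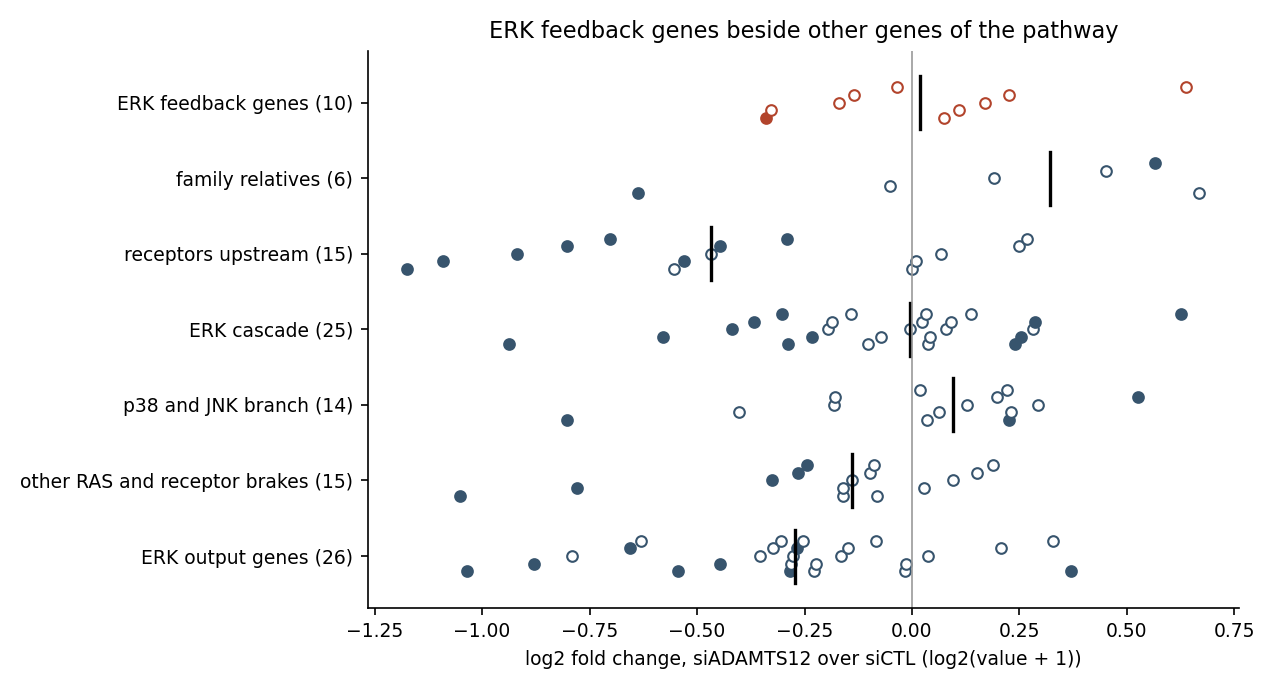
Log2 fold change (siADAMTS12 over siCTL, log2(value + 1) scale) of each tested gene in the 10 feedback genes and 6 other lists of the pathway, with the number of tested genes in parentheses; filled points are limma adjusted p below 0.05, black bars are medians, and vertical position within a list only separates points. The feedback genes hold 1 filled point and centre on 0.02. Receptors and ERK output genes centre on -0.47 and -0.27, and family relatives and the p38 and JNK branch on 0.32 and 0.10. The lists were drawn up with earlier results of these data known.

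The genes most like SPRED1 over the 6 libraries were found among 12157 genes with a mean of at least 50, by the mean absolute difference between log2 values centred on each gene's mean. They were UHMK1, PANK3 and SNX6, at distances of 0.019, 0.021 and 0.023. SNX6, a sorting nexin of endosomal transport, had 2041, 2030 and 2031 normalized counts in siADAMTS12 libraries, against 2741, 2553 and 2615 in siCTL libraries. UHMK1, a kinase, and PANK3, an enzyme of coenzyme A synthesis, were at log2 fold changes of -0.36 and -0.33. UHMK1 and PANK3 held the guide 7-mer in the 3' UTR, as did 15.6% of all searched genes, and SNX6 held neither the 7-mer nor the 6-mer. Their 3' UTRs differed in length, with 7060 bases in UHMK1, 9076 in PANK3 and 713 in SNX6. The genes were picked for their likeness to SPRED1, and the part of the matches in their values was not tested.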

How the data were processed

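RNA from 6 LX-2 libraries was sequenced as stranded poly(A) libraries on an Illumina instrument, per the labels' protocols. The tools STAR, HTSeq and DESeq2 and the build GRCh38 appear in the submitters' processing notes, with neither role nor version. The gene annotation and the counting strand are not given here. The authors deposited 1 table of normalized counts per gene, treated as a score because its whole numbers are already scaled between libraries, so no count model was fitted. The read depth is unknown.

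Values were analysed as log2(value + 1) for genes with a mean of at least 10. limma 3.58.1 in R 4.3.3 (lmFit, eBayes with intensity trend) was fitted to all 6 libraries across all genes, with group as the term, 2-sided, with Benjamini-Hochberg adjustment and a threshold of 0.05. The labels do not say whether the libraries of a group are separate cultures, and the p-values cover their spread alone, which could be technical. Deviations from the group means correlated at 0.37, 0.13 and 0.13 between libraries numbered 1, 2 and 3, and at -0.19 to 0.06 between other numbers. Every same-number value was above 0.1, so a fit with the number as a block was set beside the first; the pairing comes from the titles and this check.

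Lengths, 3' UTRs and coordinates come from GENCODE 29 (GRCh38), matched by gene ID, with 1 principal transcript per gene. Members and gene lists were chosen with earlier results of these data known. Named genes are all members, ADAMTS12, up to 3 genes per list with the smallest adjusted p (or the smallest p where none passed), and the 3 genes most like the called member with the largest rise or fall. Alternatives were another pseudocount, minimum mean, scaling or trend, the block, and leaving out each library; 3 that join the block with a scaling or leave out both libraries numbered 2 were chosen after seeing the data. Python 3.11.15, numpy 2.4.6, pandas 2.3.3, scipy 1.17.1 and matplotlib 3.10.9 were used. The values of 1 gene of the cascade list are not reported here.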

Additional observations from a re-analysis of the deposited data

How the results depend on the processing

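SPRED1 was called as lower in siADAMTS12 under every alternative run, at a log2 fold change of -0.38 to -0.22. The other members' calls depended on the settings, and the cause was not tested. The replicate block gave calls to DUSP1 (-0.17), DUSP5 (-0.33), DUSP7 (0.17) and SPRY2 (0.22), so that 2 members rose and 3 fell, and changed no other member's call. Over all genes the block gave 2423 rises and 3059 falls. It raised the counts called to 5 for relatives, 16 for ERK output genes and 6 for the p38 and JNK branch. Columns rescaled to an equal sum gave 3868 rises and 1546 falls over all genes, 6 calls in the p38 and JNK branch and 1 member rising, DUSP7 (0.30), and turned SPRY4 to 0.089. Quantile normalization also gave 1 member rising, DUSP7 (0.23), beside 2175 rises and 2078 falls over all genes, and turned SPRY4 to 0.0043. Without the intensity trend, 7 cascade genes and 3 output genes were called.

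Alternatives chosen after seeing the data were these. The replicate block with an equal sum gave 4856 rises and 1945 falls over all 15637 genes tested. There 4 members rose and 2 fell, with 5 relatives and 8 p38 and JNK genes called. The log2 fold changes were -0.20 for DUSP5, 0.23 for DUSP6, 0.30 for DUSP7, 0.35 for SPRY2, 0.089 for SPRY4 and 0.20 for SPRED2. The replicate block with quantile normalization gave 2920 rises and 2589 falls over all genes. There 2 members rose and 2 fell, with 5 relatives, 16 output genes and 6 p38 and JNK genes called. DUSP5 was at -0.27, DUSP7 at 0.23, SPRY2 at 0.25 and SPRY4 at 0.0043. With both libraries numbered 2 left out, 1367 genes rose and 2049 fell over all genes. Of the members, 1 rose, SPRY2 (0.27), and 2 fell, DUSP5 among them (-0.25). In the lists, 1 relative and 7 cascade genes were called.

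Leaving out 1 library at a time gave 0 to 1 members rising, 1 to 2 falling, 1 to 3 relatives and 4 to 10 output genes. Over all genes the rises ran from 1230 to 1623 and the falls from 1873 to 2368. The log2 fold changes ran from -0.26 to -0.12 for DUSP1, -0.24 to 0.013 for DUSP4, -0.42 to -0.18 for DUSP5, -0.023 to 0.22 for DUSP6, 0.12 to 0.24 for DUSP7, 0.14 to 0.89 for SPRY1, 0.072 to 0.43 for SPRY2, -0.20 to 0.11 for SPRY4 and 0.018 to 0.13 for SPRED2. Counting any annotated 3' UTR, a class also beyond the plan, 2 members held the guide 7-mer, DUSP4 and DUSP7. In that count 19.2% of the searched genes held it. The read depth is unknown, so the counting error of low genes such as SPRY1 cannot be given, and 3 libraries a group leave differences the size of those of DUSP4, DUSP6, SPRY4 and SPRED2 within the spread.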
